A study of Mus musculus with 16 samples.

Results

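The genes described here are 10 genes of the mesothelium, the cell layer that covers the outer capsule of the spleen: Msln, Upk3b, Upk1b, Lrrn4, Gpm6a, Bnc1, Krt7, Krt8, Krt18 and Krt19. They were chosen by symbol, and all 10 have a row among the 54838 genes of the count table. RNA was sequenced from spleens of C57BL/6 mice in 16 samples, from 8 numbers that each gave a size-selected sample and a whole spleen sample. For the size-selected group, the tissue was minced and digested, Dispase II and EDTA were added, red blood cells were lysed, and the material left on a cell strainer was taken. The labels name its source "Spleen Glia". Whole spleen samples carry the same protocol text, and how they were taken is not described separately. Each group has 4 male numbers (407, 408, 427 and 435) and 4 female numbers (436, 445, 447 and 460), and no treatment or genetic change is named. The design compares the size-selected with the whole spleen samples, to find genes enriched in the size-selected group.

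Mesothelium is a single layer of flat cells on the surface of the body cavities and of the organs within them. It has features of both an epithelium and a mesenchyme, and it builds its intermediate filaments from simple epithelial keratins. In these filaments a type II keratin, Krt7 or Krt8, pairs with a type I keratin, Krt18 or Krt19. Msln (mesothelin) is a lipid-anchored surface protein that binds the mucin Muc16. Upk1b, a tetraspanin, and Upk3b belong to the uroplakins, a family best known from the plaques on the surface of the bladder lining. Lrrn4 is a membrane protein with leucine-rich repeats, Gpm6a is a membrane glycoprotein that is also abundant in neurons, and Bnc1 (basonuclin 1) is a zinc finger transcription factor of epithelial cells.

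All coordinates are from GENCODE M21 on GRCm38, and all 10 genes are protein-coding. Msln lies at chr17:25748613-25754378 (minus strand), Upk3b at chr5:136038496-136046487 (plus), Upk1b at chr16:38773184-38800328 (minus), Lrrn4 at chr2:132868305-132880891 (minus), Gpm6a at chr8:54954843-55060871 (plus) and Bnc1 at chr7:81966672-81992292 (minus). Krt19 lies with other type I keratins at chr11:100140810-100148665 (minus). The other 3 keratins are on chromosome 15, Krt7 at chr15:101411043-101430313 (plus), Krt8 at chr15:101996698-102004482 (minus) and Krt18 at chr15:102028180-102032027 (plus). Krt8 and Krt18 face away from each other, with 23697 bases and 0 whole annotated genes between them. Krt18 is thus the 1 type I keratin of the set that sits in the type II keratin cluster.

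The RefSeq promoter table (GRCm38.p6, 250 bases before to 50 after a start) held 8 entries for 7 of the 10 members. Msln, Upk1b and Krt19 had no entry. The promoters of Upk3b and Lrrn4 are shown with those of Krt8 and Krt18 because the levels of these pairs followed different orders over the size-selected samples. Capitals mark matches on either strand to GGAATG, the core letters of TEAD sites (Upk3b at chr5:136038246-136038545, Lrrn4 at chr2:132880813-132881112), or to TATAAA, the TATA box letters (Krt8 at chr15:102004293-102004592). Krt18 (chr15:102027966-102028265) had no match.
Upk3b promoter: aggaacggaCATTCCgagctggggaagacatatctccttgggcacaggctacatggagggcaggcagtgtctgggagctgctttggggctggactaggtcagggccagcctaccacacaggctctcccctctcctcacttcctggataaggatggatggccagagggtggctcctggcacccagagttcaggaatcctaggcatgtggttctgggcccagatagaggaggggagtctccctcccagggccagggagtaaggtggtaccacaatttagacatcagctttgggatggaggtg
Lrrn4 promoter: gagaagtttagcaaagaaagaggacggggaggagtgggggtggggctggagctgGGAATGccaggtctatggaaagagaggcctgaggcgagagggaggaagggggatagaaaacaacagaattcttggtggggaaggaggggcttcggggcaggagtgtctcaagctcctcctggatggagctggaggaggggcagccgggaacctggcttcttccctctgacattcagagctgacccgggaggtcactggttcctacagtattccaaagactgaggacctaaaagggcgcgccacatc
Krt8 promoter: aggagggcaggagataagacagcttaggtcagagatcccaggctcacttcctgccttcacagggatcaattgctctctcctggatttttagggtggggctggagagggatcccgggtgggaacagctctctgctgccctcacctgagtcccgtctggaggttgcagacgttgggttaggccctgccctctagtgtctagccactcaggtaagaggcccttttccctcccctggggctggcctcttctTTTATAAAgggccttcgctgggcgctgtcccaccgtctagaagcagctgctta
Krt18 promoter: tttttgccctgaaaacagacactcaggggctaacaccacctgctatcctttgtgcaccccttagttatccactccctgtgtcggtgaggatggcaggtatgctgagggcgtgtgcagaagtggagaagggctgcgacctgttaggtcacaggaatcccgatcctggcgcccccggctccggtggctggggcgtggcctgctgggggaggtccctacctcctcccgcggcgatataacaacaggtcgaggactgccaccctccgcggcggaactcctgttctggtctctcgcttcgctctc

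The GGAATG letters began 241 bases before the start in Upk3b and 196 before it in Lrrn4. An upstream Gpm6a entry had them 125 bases before its start. Of all 32851 promoters in the table, 14.7% held these letters, so a match is common. In Krt8, 2 overlapping matches to TATAAA on opposite strands began 3 and 1 bases before the start, and 13.6% of all promoters held this motif. The GC box letters GGGCGG, held by 35.7% of all promoters, occurred 6 times in the Bnc1 entry and 4 times in that of Krt7. The AP-1 letters TGANTCA, held by 7.81% of all promoters, occurred in 0 of the 8 entries. The Bnc1 entry had a GC content of 83.3%, against a median of 52.7% over all promoters.

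Levels are given in CPM, which are counts relative to library totals scaled by TMM, a factor that adjusts for composition. Total estimated counts were 13119992 to 19944440 in the size-selected samples and 12153770 to 16282454 in whole spleen, so 1 count is under 0.1 CPM. Summed over the 10 members, the size-selected samples held 64.5 to 392 CPM (median 155) and whole spleen samples held 2.40 to 6.12 CPM (median 3.80). A gene is called when its Benjamini-Hochberg adjusted p in edgeR's quasi-likelihood test over all 14510 genes tested is under 0.05. Of those genes 37.5% (38.1% with the number as a block) were called higher in size-selected RNA and 30.4% lower, and their median log2 fold change was 0.05. With library totals in place of TMM, that median was higher by 0.13.

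Every member was higher in the size-selected sample than in whole spleen in 8 of 8 numbers, and no member's groups overlapped. Over all genes tested, 31.3% were higher in all 8 pairs and 23.3% had groups that did not overlap in this direction. The 9 members that passed the count filter were all called higher, and Bnc1 did not pass. Except for Gpm6a, these genes passed the filter through the size-selected samples, so their number of calls is given as a description.

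Among the surface proteins, Msln was at 5.54 (sample 408) to 37.8 CPM (sample 445) in the size-selected samples, with a median of 14.2 CPM. In whole spleen it reached at most 1.06 CPM (sample 427) and had 0 counts in 2 of 8 samples. Its mean was 18.3 ± 11.1 CPM (SD, n = 8) against 0.310 ± 0.370 CPM, a ratio of 58.9. The log2 fold change was 5.86 (SE 0.58, edgeR adjusted p = 5.72e-08).

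The uroplakin Upk3b ranged from 6.16 (sample 408) through a median of 31.5 to 58.6 CPM (sample 445) in the size-selected samples, and from 0 to 0.841 CPM in whole spleen. The means were 31.1 ± 15.4 and 0.357 ± 0.285 CPM (SD, n = 8 each), and the log2 fold change was 6.41 (SE 0.49, edgeR adjusted p = 2.49e-09). Its fellow uroplakin Upk1b ranged from 2.15 (sample 408) to 26.4 CPM (sample 445), with a median of 9.22 CPM, against at most 0.327 CPM in whole spleen. The log2 fold change of Upk1b was 5.94 (SE 0.52, edgeR adjusted p = 1.29e-08). Both uroplakins were near 0 in whole spleen, and samples 408 and 445 were at the ends of the size-selected range for both.

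Lrrn4 ranged from 1.94 (sample 408) to 29.0 CPM (sample 445), with a median of 10.5 CPM, against 0 to 0.408 CPM in whole spleen. Its log2 fold change was 6.45 (SE 0.63, edgeR adjusted p = 4.91e-08). Gpm6a was detected in every whole spleen sample, with 13 to 33 counts in each (0.849 to 2.69 CPM). In the size-selected samples Gpm6a ranged from 8.72 (sample 408) to 63.5 CPM (sample 445), with a median of 21.3 CPM. It had the smallest fold change of the 9 tested members, 4.19 on the log2 scale (SE 0.38, edgeR adjusted p = 1.75e-08).

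Of the keratins, Krt8 and Krt18 had the widest range over the size-selected samples. Krt8 ranged from 2.22 (sample 427) to 64.8 CPM (sample 445), with a median of 23.2 CPM, and whole spleen reached at most 0.835 CPM (sample 460). Its means were 27.2 ± 21.3 and 0.185 ± 0.281 CPM (SD, n = 8 each), and its log2 fold change was 7.07 (SE 0.78, edgeR adjusted p = 2.44e-07). Without number 460, which held 13 of the 22 whole spleen counts, the log2 fold change of Krt8 was 8.06. Krt18, its usual partner, ranged from 2.08 (sample 427) to 45.7 CPM (sample 445), with a median of 11.02 CPM, against 0.233 to 1.401 CPM in whole spleen. The log2 fold change of Krt18 was 4.85 (SE 0.63, edgeR adjusted p = 1.76e-06).

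Krt19, a type I keratin that lacks the tail domain of other keratins, ranged from 4.22 (sample 427) to 44.9 CPM (sample 445), with a median of 15.95 CPM. In whole spleen Krt19 was at 0 to 0.979 CPM, and the log2 fold change was 5.94 (SE 0.69, edgeR adjusted p = 4.01e-07), or 6.58 without number 427. Krt7 ranged from 2.21 (sample 408) to 19.7 CPM (sample 445), with a median of 6.83 CPM. In whole spleen Krt7 had 31 counts in all, of which 19 were in sample 407 (1.48 CPM), and 4 of 8 samples had 0. Its log2 fold change was 4.79 (SE 0.74, edgeR adjusted p = 1.49e-05), or 5.94 without number 407. Estimated counts of Krt8 can share reads with its processed copy Krt8-ps, which held 17.04 counts over the size-selected samples and 0 in whole spleen, against 3496.96 for Krt8 itself.

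Bnc1, the transcription factor of the set, had 2 (sample 408) to 26 counts (sample 435) in a size-selected sample and 0 counts in all 8 whole spleen samples. The size-selected mean was 0.789 ± 0.472 CPM (SD, n = 8). Against the 3 counts that a count of 0 over the whole spleen group allows (0.0268 CPM, counting error only), Bnc1 was at least 29.4-fold higher. In the fit without a count filter its edgeR adjusted p was 1.62e-05, where 25.3% of 28235 genes were called higher.

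**Figure D1:**
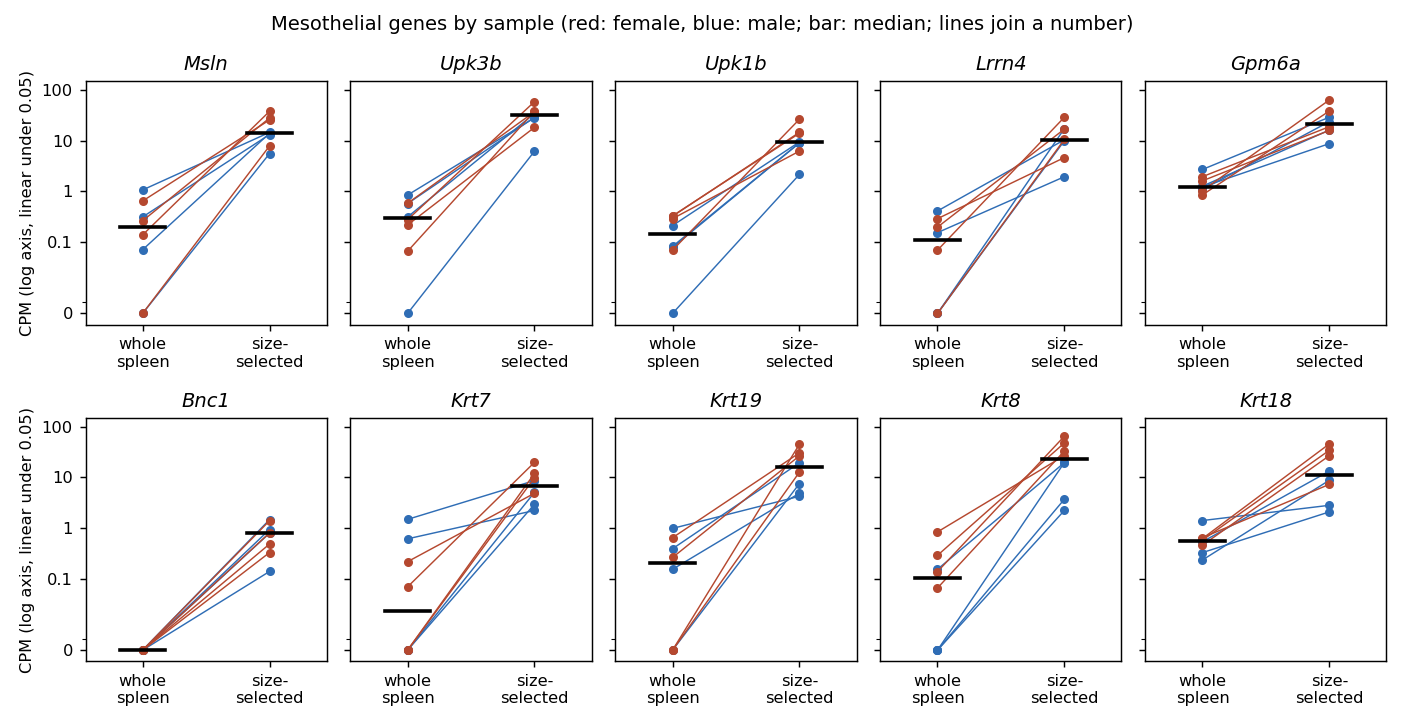
CPM of the 10 mesothelial genes (log axis, linear under 0.05 CPM) in whole spleen and size-selected samples, 1 panel per gene. Points are samples, lines join the 2 samples of a number, red is female and blue male, and black bars are group medians. In each panel all 8 size-selected points lie above all 8 whole spleen points, and Bnc1 is at 0 in whole spleen.

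To compare genes with each other, levels per transcript length are needed, and these come from the authors' deposited table, which gives group means as TPM for 2201 genes. Its lowest log2 fold change is 3.5, and all 10 members are in the authors' deposited table. In the edgeR fit, 9.97% of all genes tested were called higher and reached that log2 fold change, as did the 9 tested members. In it the size-selected TPM was highest for Krt19 (22.6), Krt8 (18.9) and Krt18 (17.5). Msln (11.5), Upk3b (11.1), Gpm6a (10.4) and Upk1b (8.08) followed in the authors' deposited table, then Lrrn4 (4.20), Krt7 (2.82) and Bnc1 (0.208). The whole spleen TPM in the authors' deposited table was at most 0.46 for every member (Gpm6a) and was listed at 0 for Bnc1. No spread is given there, so neighbours in this order cannot be told apart.

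Beside the members, 18 other genes of mesothelium were read. Of these, 14 were tested, 13 were called higher and 0 lower, where 37.5% of all genes tested were called higher. Like the members, several of them passed the filter through the size-selected samples, such as Wt1 and Ildr2, and fibroblast and smooth muscle genes were higher too, so this count is a description and does not test the mesothelial label. Wt1, the transcription factor of mesothelium and podocytes, was at 1.06 to 3.79 CPM against at most 0.13 CPM (log2 fold change 5.59, SE 0.50). Rspo1, a Wnt enhancer, rose by 5.03, the sodium pump partner Nkain4 by 5.67 (6.61 without number 435), the retinoic acid enzyme Aldh1a2 by 2.83 and the tight junction protein Cldn15 by 3.91 on the log2 scale. Podxl, Pdpn, Gata6, Efemp1, Igfbp6, Ildr2, Dmkn and Rarres2 were also called higher. Slpi, a protease inhibitor, was high in both groups (166 to 344 CPM against 247 to 448 CPM, log2 fold change -0.24, edgeR adjusted p = 0.169). Muc16, the partner of Msln, did not pass the filter and reached 1.63 CPM (size-selected sample 460), and Calb2, another common marker of mesothelium, had 0 counts in all 16 samples.

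Paralogs of the members separated by family. The bladder uroplakins Upk2 and Upk3a had 0 counts in all 16 samples, and Upk1a and Upk3bl reached at most 0.503 and 0.054 CPM. Mslnl, the paralog of Msln, did not pass the filter and reached 0.0716 CPM in 1 sample. Lrrn1 rose by 4.84, Lrrn2 by 6.16, Lrrn3 by 2.29, Bnc2 by 4.88 and Gpm6b by 3.67 on the log2 scale. With 1 number left out, the value was 8.90 for Lrrn2 without 427 and 5.46 without 436, and 5.92 for Bnc2 without 447.

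Of 13 keratins of stratified and other epithelia, 3 were tested. Krt1 was called higher (2.15 to 8.63 CPM against at most 0.22 CPM, log2 fold change 6.56, or 7.85 without number 436) and so was Krt10 (1.08), while Krt80 was not called (0.59, edgeR adjusted p = 0.127). Krt80 was called higher when the number was a block (0.80, edgeR adjusted p = 0.0466) and with limma-voom (0.90, adjusted p = 0.0201). On the restored counts it was also called higher (1.00, edgeR adjusted p = 0.0134). Krt14 and Krt15, keratins of basal epithelial cells, did not pass the filter and were highest in sample 445 (12.1 and 6.95 CPM), where 9 of the 10 members also peaked. Krt5, the usual partner of Krt14, had 0 counts in all 8 size-selected samples. Among 9 genes that anchor keratin to junctions, 4 of 5 tested were called higher (Jup by 2.11, Pkp4 by 1.06, Dsc2 by 6.26, or 7.73 without number 427, and Plec by 0.53 on the log2 scale), and Ppl was not called (0.77, edgeR adjusted p = 0.0871). Ppl was called higher with the block (0.97, edgeR adjusted p = 0.0292), with limma-voom (1.07, adjusted p = 0.0243) and without number 427 (1.06, edgeR adjusted p = 0.0241). Dsp, the desmosomal plakin, was at most 0.38 CPM.

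Genes of other stromal cells moved with the members. All 6 fibroblast genes, all 5 smooth muscle genes and all 5 endothelial genes tested were called higher, with median log2 fold changes of 6.76, 6.49 and 3.76. The glia genes S100b and Cdh19 were called higher, by 6.45 and 7.87 on the log2 scale (8.14 and 8.50 without number 435, and 7.26 for Cdh19 without 436). Of 6 lymphocyte genes 5 were called lower, and Cd4 was not called (log2 fold change 0.30, edgeR adjusted p = 0.0669, and 0.32 with adjusted p = 0.0371 with the block). Cd4 was also called higher with library totals, with limma-voom and without number 427 or 436 (0.30 to 0.41, edgeR or limma-voom adjusted p of 0.0155 to 0.0476). Of 3 erythroid genes 2 were called lower, of which Hbb-bs was not called on the restored counts (-1.64, edgeR adjusted p = 0.0554). The third, Alas2, was called lower with the block (-1.45, edgeR adjusted p = 1.08e-05). Summed over the lists, fibroblast genes were at 727 to 2528 CPM against 2.89 to 44.7 CPM and smooth muscle genes at 765 to 3638 CPM against 8.36 to 69.2 CPM. Sox10, the transcription factor of glia named by the label, did not pass the filter and reached 6.59 CPM in size-selected sample 436, against a highest value of 0.408 CPM in whole spleen. Adipocyte genes summed to at most 4.99 CPM in any size-selected sample. In bulk RNA, more cells of a type and more RNA per cell cannot be told apart, and the part of the other cell types in the members' difference was not tested.

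**Figure D2:**
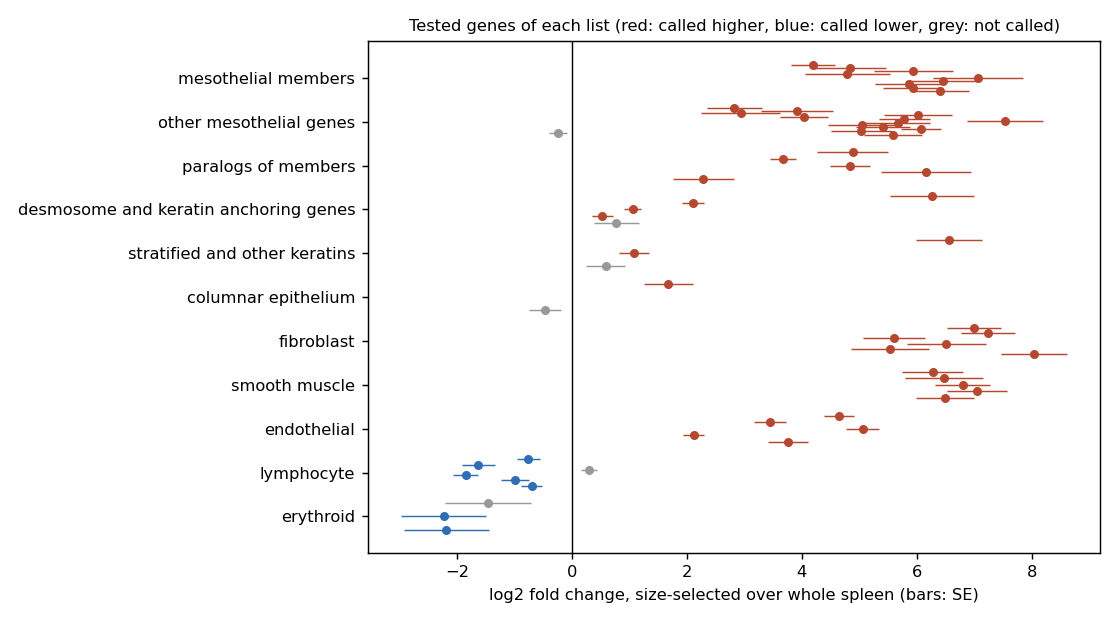
Log2 fold change of size-selected over whole spleen for each tested gene, in rows by gene list, with bars of 1 SE from edgeR. Red points were called higher, blue lower and grey not called. The 9 tested members lie between 4.19 and 7.07, in the range of most other mesothelial, fibroblast and smooth muscle genes, and Slpi lies at -0.24.

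Within the size-selected group, the members varied more from sample to sample than most genes. The highest sample was 6.83 times the lowest for Msln, 9.52 times for Upk3b, 12.3 times for Upk1b, 14.9 times for Lrrn4, 22.0 times for Krt18 and 29.2 times for Krt8, against a median of 2.03 times over all genes tested. The SD of log2 CPM over the 8 samples was at percentile 94.5 (Gpm6a) to 99.6 (Krt8) of all genes tested. Sample 445 was the highest for 9 members, and Bnc1 was highest in sample 435 (1.46 CPM) with 445 next to it (1.39 CPM). The lowest sample was 408 for Msln, Upk3b, Upk1b, Lrrn4, Gpm6a, Krt7 and Bnc1, but 427 for Krt8, Krt18 and Krt19.

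The order of the samples differed between the surface proteins and Krt8 with Krt18. Sample 408 was the lowest for Upk3b (6.16 CPM) and Msln (5.54 CPM), yet held 19.5 CPM of Krt8 and 13.3 CPM of Krt18. Sample 436 was second lowest for Upk3b (18.2 CPM) and Msln (7.84 CPM), yet second highest for Krt8 (47.7 CPM) and Krt18 (34.2 CPM). Samples 427 and 435 were the lowest for Krt8 (2.22 and 3.70 CPM) and Krt18 (2.08 and 2.80 CPM), with Upk3b at 28.8 and 28.2 CPM, a little under its median of 31.5 CPM. Samples 445 and 447 were high for both.

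**Figure D3:**
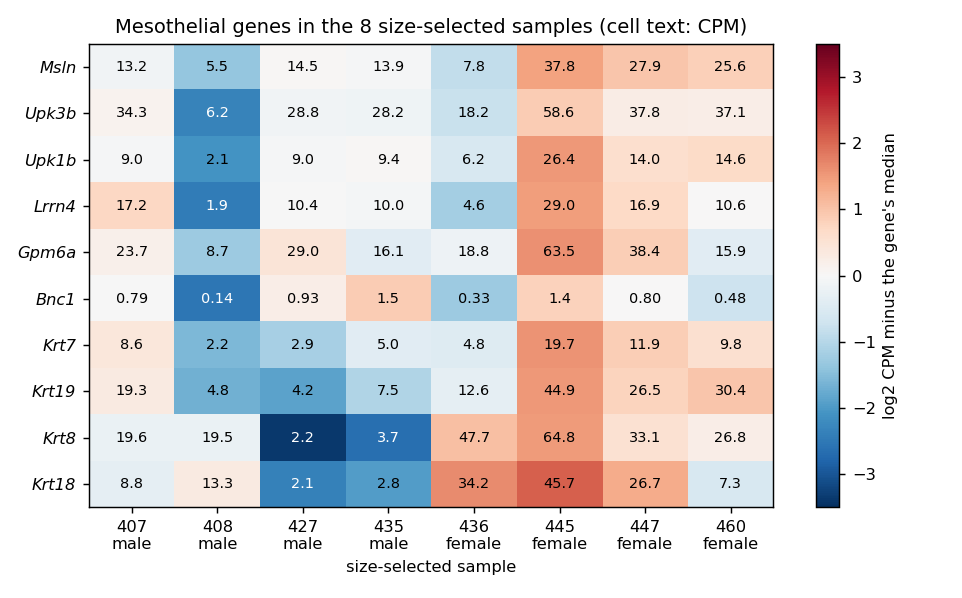
Log2 CPM of each member minus its median (colour) in the 8 size-selected samples, with CPM printed in each cell. Sample 445 is red in every row, sample 408 is blue for all rows except the pale Krt8 and Krt18, and samples 427 and 435 are blue for the keratins and near the median for Msln, Upk3b, Upk1b and Lrrn4.

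Correlations of log2 CPM (prior count 2) over the 8 size-selected samples followed the same lines. The 45 member pairs and 20 pairs with Epcam and Cdh1 made a family of 65 relations, each with exact permutation p-values over 40320 pairings, and Benjamini-Hochberg adjustment. Grouping the members was done after their values were seen. Msln, Upk3b, Upk1b and Lrrn4 had Pearson r of 0.89 to 0.98 in their 6 pairs. For Upk3b and Upk1b r was 0.98 (adjusted exact permutation p = 0.00403) and Spearman rho 0.88 (adjusted exact permutation p = 0.0588), and r was 0.90 without samples 408 and 445, the 2 farthest from the Upk3b median. The pairs with Lrrn4 held less well for Upk1b and Msln: without the same 2 samples r fell from 0.93 to 0.66 for Upk1b and from 0.89 to 0.68 for Msln, and rho over all 8 was 0.71 and 0.76 (adjusted exact permutation p = 0.178 and 0.149). Krt8 and Krt18 had r = 0.94 and rho = 0.90 (adjusted exact permutation p = 0.00403 and 0.0424), and r = 0.87 without samples 427 and 435, the 2 farthest from the Krt8 median. Krt7 and Krt19 had r = 0.96 and rho = 0.93 (adjusted exact permutation p = 0.00403 and 0.0242), and r = 0.95 without samples 408 and 445.

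Between the surface proteins and Krt8 or Krt18 the relation was weak. The 8 pairs of Msln, Upk3b, Upk1b or Lrrn4 with Krt8 or Krt18 had r of 0.06 to 0.23. For Upk3b and Krt8 r was 0.12 and rho 0.50 (adjusted exact permutation p = 0.874 and 0.439), and r was -0.04 without samples 408 and 445. Krt7 and Krt19 had r of 0.69 to 0.87 to the surface group and 0.52 to 0.75 to Krt8 and Krt18. Without the 2 samples farthest from the median of a single gene of the pair, these were 0.48 to 0.67 and 0.21 to 0.69. The samples left out differed between pairs (408 and 445, 408 and 427, 427 and 435, or 427 and 445). The placing of Krt7 and Krt19 thus rests in part on the samples left out. When samples 408 and 436 were left out, a choice made after seeing the values, the same 8 pairs had r of 0.78 to 0.90 over 6 samples, so the weak relation rests on these 2 samples. Each sex has 4 size-selected samples, too few for a correlation within a sex.

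**Figure D4:**
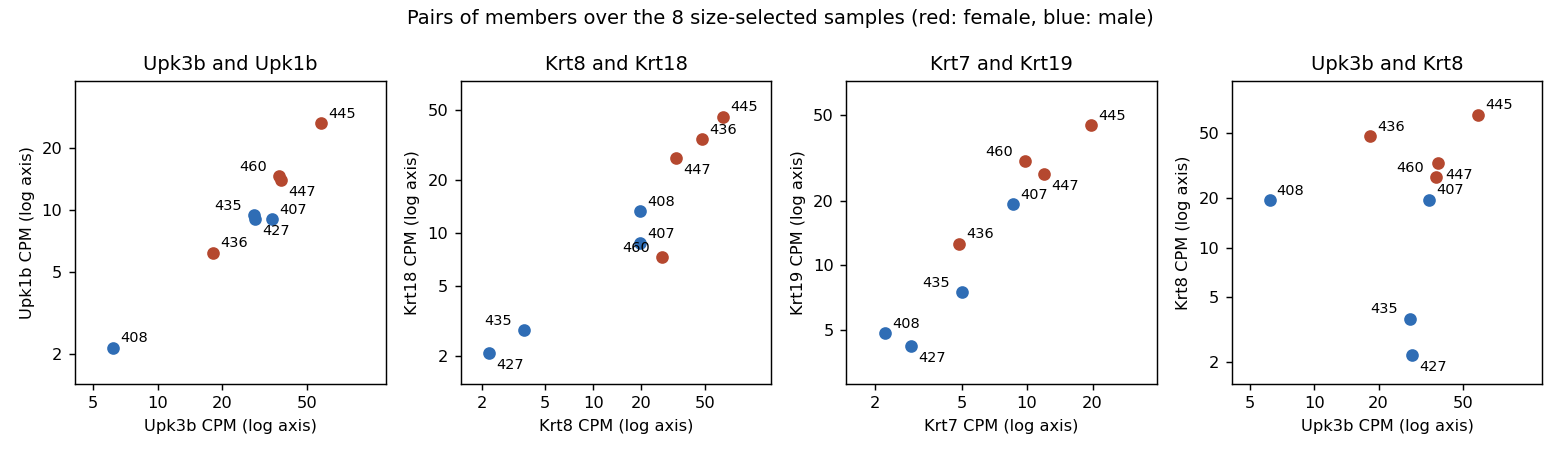
CPM of pairs of members over the 8 size-selected samples (both axes log), each point labelled with its number, red for female and blue for male. Upk3b with Upk1b, Krt8 with Krt18, and Krt7 with Krt19 rise together, while in Upk3b with Krt8 samples 408 and 436 lie to the upper left and 427 and 435 at the bottom.

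Genes of columnar epithelium were checked beside this pattern, since simple keratins are also made there. Summed over 8 such genes, the size-selected samples held 6.59 (sample 427) to 66.0 CPM (sample 436) and whole spleen 14.5 to 25.4 CPM, higher in 3 of 8 pairs. Epcam made up most of the whole spleen sum, with a mean of 18.9 CPM there. Cldn3 and Cldn7, claudins that did not pass the filter, were higher in the size-selected sample in 8 of 8 pairs and Cdh1 in 7 of 8, unlike the sum. Samples 436 and 408 had the highest sums (66.0 and 36.6 CPM), with 445 at 33.6 CPM. Cldn4, a claudin of columnar epithelium, was at 20.2 CPM in sample 436 and 1.38 CPM in sample 408, at 0.066 CPM in sample 407, and at 0 in the other size-selected samples. Elf3, an epithelial transcription factor, was at 3.10 CPM in 436, 1.18 CPM in 408, 0.197 CPM in 407 and 0 in the rest. Cldn7 was at 7.62 CPM in sample 436 and at most 2.08 CPM in the others. Esrp1 and Grhl2, 2 further epithelial regulators, reached at most 0.219 CPM in any size-selected sample.

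Cdh1 (E-cadherin) was at 14.1 CPM in sample 436 and 1.57 to 7.68 CPM in the others, and was called higher in the size-selected group (log2 fold change 1.68, edgeR adjusted p = 0.00195). Epcam was not called (log2 fold change -0.46, edgeR adjusted p = 0.147). With the number as a block Epcam was called lower (-0.60, edgeR adjusted p = 0.0161). Over the size-selected samples Cdh1 had r = 0.84 with Krt8 and 0.88 with Krt18 (adjusted exact permutation p = 0.0352 and 0.0322), and rho was 0.83 and 0.93 (adjusted exact permutation p = 0.0833 and 0.0242). Without the 2 samples farthest from the keratin's median, r was 0.60 for Krt8 (427 and 435 left out) and 0.84 for Krt18 (427 and 445 left out). Sample 436, the highest for Cdh1, stayed in for both, so these 2 values do not show how far r rests on it. With Upk3b the r of Cdh1 was -0.29 over 8 samples and 0.97 over the 6 without samples 408 and 436. Epcam had r = 0.79 with Krt8 and 0.79 with Krt18 (adjusted exact permutation p = 0.0482 and 0.0365). Its rho was 0.60 and 0.79 (adjusted exact permutation p = 0.307 and 0.121). Without the 2 samples farthest from the keratin's median, the r of Epcam was 0.44 and 0.56.

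Krt17, a further type I keratin, was likewise highest in samples 408 (3.53 CPM) and 436 (2.83 CPM) and at most 0.72 CPM in the other size-selected samples. Pancreatic acinar genes summed to 5.17 CPM in size-selected sample 436 and at most 0.90 CPM in the other size-selected samples, and to 16.5 CPM in whole spleen sample 436 against at most 1.14 CPM in the rest. Of the pancreatic duct genes, Sox9 was called higher (log2 fold change 5.16, edgeR adjusted p = 2.95e-08, and 5.74 without number 408). Cftr and Onecut1 did not pass the filter. Whole spleen sample 436 held 0.288 CPM of Krt8 and 0 of Cldn4. The part of these columnar, acinar and duct genes in the levels of Krt8 and Krt18 was not tested. Without number 436 or 408, as without each other number in turn, Krt8 and Krt18 stayed called higher in the size-selected group.

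**Figure D5:**
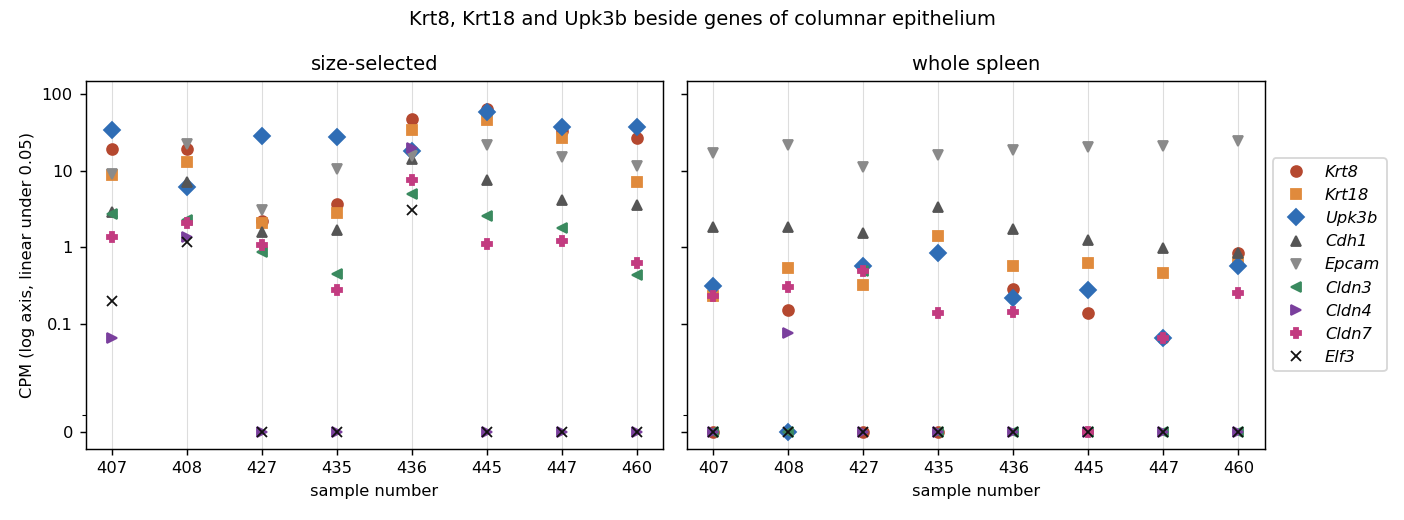
CPM (log axis, linear under 0.05 CPM) of Krt8, Krt18 and Upk3b beside 6 genes of columnar epithelium, by sample number, in the size-selected and whole spleen groups. Cldn4 and Elf3 are above 1 CPM in size-selected samples 408 and 436, the 2 samples where Upk3b is lowest. In whole spleen Elf3 is at 0 in every sample.

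No member was called between the sexes within the size-selected samples, where edgeR called 6 of 15127 genes (0.0397%) and 632 had an unadjusted p under 0.05. All 10 members had an edgeR adjusted p of 0.999. At unadjusted p under 0.05 were 5 members, all higher in females: Krt19, Krt18, Krt8, Krt7 and Msln, with log2 differences of 1.64, 2.03, 1.89, 1.26 and 1.05. With 1 sample left out, the difference was 1.35 to 2.32 for Krt19, 1.72 to 2.63 for Krt18 and 1.54 to 2.33 for Krt8. It was 0.89 to 1.71 for Krt7 and 0.78 to 1.34 for Msln. DESeq2 and limma-voom also called 0 members, with 6 and 4 at unadjusted p under 0.05. Krt8 was at 43.1 ± 16.9 CPM in the 4 females (26.8 to 64.8) and 11.3 ± 9.61 CPM in the 4 males (2.22 to 19.6), without overlap. Of all genes tested, 2.35% had females above males without overlap. Upk3b was at 37.9 ± 16.5 CPM in females and 24.4 ± 12.4 CPM in males, with overlap. The interaction of sex and fraction was called by edgeR for 0 of 15760 genes (0%), with 744 at unadjusted p under 0.05, among them Krt7 (female minus male difference in log2 fold change 4.08, SE 1.41) and Krt18 (2.22, SE 0.98). With 1 number left out, the Krt7 value was 3.22 without 407 and 5.66 without 436, and the Krt18 value 1.18 without 435 and 2.86 without 408. DESeq2 and limma-voom called the interaction for 3 and 0 genes, with 0 members among them.

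The genes most like the set were those with the highest Pearson r over the 8 size-selected samples to the mean of the members' scaled log2 CPM, out of 12889 candidates. They were Rpap2 (r = 0.97), Mpzl2 (0.95), Rtn3 (0.95), Gm10033 (0.94), Golt1b (0.94), Tmem151a (0.92), Tmed7 (0.91), C5ar2 (0.91), Lman2 (0.91) and Cldn15 (0.91). With so many candidates and 8 points, the gene at rank 100 still had r = 0.77. Rtn3 was at 179 to 223 CPM in the size-selected samples and 175 to 243 CPM in whole spleen (log2 fold change -0.13, edgeR adjusted p = 0.163). Rpap2 was at 10.3 to 13.9 CPM against 5.53 to 12.5 CPM in whole spleen (log2 fold change 0.42, edgeR adjusted p = 0.0247). Cldn15 (0.623 to 17.4 CPM against 0 to 1.61 CPM) and Tmem151a (1.04 to 9.11 CPM against 0.326 to 0.935 CPM) were among those also called higher in the size-selected group, as were Mpzl2, C5ar2 and Tmed7 (log2 fold changes 1.43, 1.36 and 0.69). With Spearman's rho, 4 of the 10 genes remained.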

How the data were processed

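RNA from 8 size-selected and 8 whole spleen samples was sequenced as Illumina libraries. Per the submitters' processing notes, Trim Galore, STAR, RSEM and DESeq and the build mm10 were used, and their versions and the annotation are not given in the sources used here. The authors deposited estimated counts per gene, and the 16 columns of 54838 genes were all used. For 3898 genes the deposited estimated counts of the 8 size-selected columns are multiplied by up to 3 constants, as found from the values. None of the 10 members is among them, while 37 of the genes in the other lists are, and an alternative divided these constants out. The authors' deposited table gives a mean signal, a log2 fold change with its error, a test score, p-values, TPM and FPKM, and its TPM values are printed with no error of their own.

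Estimated counts were rounded and tested with edgeR 4.0.16 (R 4.3.3; filterByExpr with a minimum count of 10, TMM scaling, quasi-likelihood F test, Benjamini-Hochberg adjustment over all genes tested), with the group as the only term. Sex was tested in the 8 size-selected samples, and its interaction with fraction in all 16. The labels do not say whether a number is 1 animal. Samples of the same number deviated together (r of 0.12 to 0.38 over genes, mean 0.21, against a mean of -0.03 for different numbers), so the number was treated as pairing them in a fit with a replicate block. The alternatives were DESeq2 1.42.0, limma 3.58.1 (voom), RLE scaling, library totals, no count filter, a log2 fold change of at least 1, the restored counts and leaving out each number in turn. The fits were tested on simulated data. Those data had the same spread setting for every gene, so they do not cover the wide spread of the members. The samples of a group are taken as replicates, and p-values measure the spread between these samples.

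All 10 members were named, with any gene of 14 other lists, of which some genes are not reported here. The genes most like the members were the 10 with the highest r among genes whose mean log2 CPM in the size-selected samples was 1 or more. The members and the lists were chosen with earlier results of these data known. Gene coordinates are from GENCODE M21 and promoters from RefSeq, and motifs were searched as exact letters on both strands.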

Additional observations from a re-analysis of the deposited data

How the results depend on the processing

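Under the alternatives, the 9 tested members gave 135 log2 fold changes in all, each called higher, at 3.83 to 8.06 with edgeR, DESeq2 or limma-voom adjusted p of at most 0.00298. These fits reuse the same samples, and members other than Gpm6a passed the filter through the size-selected group, so this number is a description. Over all genes, 9855 of 14510 tested were called between the fractions (37.5% higher and 30.4% lower). The number called was 10076 with the number as a replicate block, 4844 when a log2 fold change of at least 1 was asked for, and 9249 to 9823 with each number left out. The block changed the call of no member. Between the sexes in the size-selected samples, 6 genes were called by edgeR, 22 by DESeq2 and 5 to 6 with a sample left out. The interaction was called for 0 genes by edgeR, 3 by DESeq2, 3 with the replicate block, and 0 to 1 with each number left out (1 without 445), and the cause of these shifts was not tested. Slpi moved from -0.24 to 0.0072 on the log2 scale with the restored counts, where its values are divided by the constants. The female to male log2 difference of Bnc1 (-0.22) was -0.66 to 0.25 with a sample left out, at 0.25 without 435 and 0.04 without 436. Depth limits the whole spleen levels, where the members other than Gpm6a and Krt18 had 0 counts in at least 1 sample, so fold changes there rest on few counts and moved by more than 1.5 times for Krt7 without number 407, Krt8 without 460 and Krt19 without 427.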
